A study of Homo sapiens with 4 samples.

Results

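The genes described here encode enzymes that introduce double bonds into fatty acids or lengthen them, in MV4-11, an established cell line from a human acute myeloid leukemia. They were chosen by symbol, and all 10 of them (FADS1, FADS2, FADS3, SCD5, ELOVL1, ELOVL5, ELOVL7, HSD17B12, HACD3 and TECR) were found among the 23622 genes of the deposited table. RNA was sequenced from 2 sh-NC libraries and 2 sh-IRF1 libraries. The labels give all 4 libraries as wild type and call the first group untreated, while the study names it sh-NC, a control hairpin. The sh-IRF1 libraries came from cells with a short hairpin RNA against IRF1, a transcription factor of the interferon response. Per the study's methods, hairpins were delivered by lentivirus from the pLKO.1 vector into cells selected with puromycin and collected after 3 days of selection. The study used 2 hairpins against IRF1, and the labels do not say which one each sh-IRF1 library carried. Nothing in the labels says that libraries of a group came from separate cultures, so the p-values measure the spread between these libraries, which may be technical.

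Library depth was 17635908 to 18695337 reads. The deposited value of a gene is its reads divided by 1 size factor per library and is called the normalized count. IRF1 itself was 785 and 738 normalized counts in sh-NC and 430 and 432 in sh-IRF1, or 56.6% of the control level (log2 fold change -0.82, SE 0.0904, adjusted p = 1.69e-10, limma). In the table, 7 of 7 myeloid markers were detected in both groups, with summed values of 28346 to 28644 in sh-NC and 25948 to 25982 in sh-IRF1. Of the 7, 3 were lower in sh-IRF1 (MPO at -1.42, FLT3 at -0.46 and CSF1R at -0.19 on the log2 scale), LYZ, CSF3R and SPI1 were higher (0.85, 0.44 and 0.17), and CD33 was not called. The part of these shifts in the results was not tested. Of 6 markers of other cell types, CD3E, MS4A1, EPCAM and HBA1 were not listed, and the summed value of COL1A1 and ALB was at most 4.97. Fold changes are on the log2(normalized count + 1) scale, on which low genes appear to change less than they do. The limma test took in 14120 genes, those that reached 10 normalized counts in 2 or more libraries, and its p-values were adjusted over all of them by the Benjamini-Hochberg method. The smallest two-sided p of an exact permutation test on 2 against 2 libraries is 0.333, and a call therefore depends on limma's pooling of the spread over genes.

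Fatty acids reach a mixed length and degree of unsaturation through cycles of elongation and desaturation at the endoplasmic reticulum. Desaturases draw electrons from cytochrome b5 and insert a double bond at a fixed place in the chain. SCD and SCD5 make monounsaturated fatty acids, and FADS2 and FADS1 act in turn, with an elongation by ELOVL5 between them, on the way from dietary linoleic and alpha-linolenic acid to arachidonic and eicosapentaenoic acid. Elongation has 4 steps, in which an ELOVL enzyme condenses the acyl chain with malonyl-CoA, HSD17B12 reduces the product, a HACD enzyme removes water and TECR reduces the remaining double bond. Several genes of this pathway are known targets of the transcription factors SREBP-1, encoded by SREBF1, and LXR.

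Of the 10 enzymes, 9 passed the filter on low values, and 7 of these passed an adjusted p of 0.05, 5 of them lower and 2 higher in sh-IRF1. Among all genes tested, 42.2% passed, 21.9% lower and 20.3% higher. Their median change was -0.14 on the log2 scale, against -0.0019 for all genes tested, and the values ran from -1.87 for SCD5 to 0.38 for FADS3. With a log2 fold change beyond 0.5 required as well, 3 were lower (FADS2, ELOVL1 and SCD5) and 0 higher, against 7.56% and 8.27% of all genes. SCD5 entered the test only through its sh-NC values and lost its call without either first replicate. Without SCD5, 4 of 8 were lower, 2 of them beyond 0.5, and 2 were higher, with a median of -0.083. Both sh-IRF1 libraries lay below both sh-NC libraries for the 5 lower genes, a pattern that 35.0% of all genes tested showed, and above them for the 2 higher genes, as for 34.2% of all genes. The groups were thus apart for 7 of 9, against 69.2% of all genes. In bulk RNA, fewer cells with a transcript and less of it per cell cannot be told apart.

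**Figure D1:**
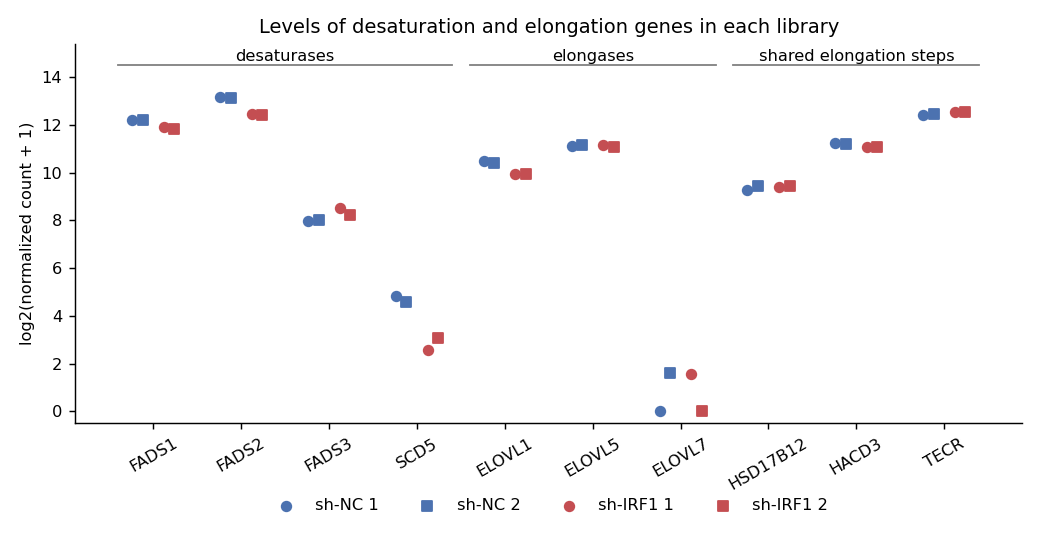
Level of each of the 10 genes in each library, as log2(normalized count + 1); blue points are the 2 sh-NC libraries and red points the 2 sh-IRF1 libraries. FADS2, FADS1, ELOVL1 and SCD5 show red points below blue ones, FADS3 shows them above, and ELOVL7 stays at 0 to 2 reads in every library.

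The promoters of the 4 genes that fell most and of TECR, which rose, are shown. FADS3, whose promoter is not shown, rose more (0.38 on the log2 scale, against 0.11 for TECR). The call of TECR was lost in some fits with a library left out, so these promoters are no comparison of rising with falling genes. Each promoter shown holds 250 bases before and 50 bases after a RefSeq start on GRCh38.p14, 5′ to 3′ on the gene's strand. Capitals mark CCAAT, the motif bound by NF-Y, or its reverse complement ATTGG. The FADS1 window holds none.
FADS2, chr11:61816154-61816453, plus strand: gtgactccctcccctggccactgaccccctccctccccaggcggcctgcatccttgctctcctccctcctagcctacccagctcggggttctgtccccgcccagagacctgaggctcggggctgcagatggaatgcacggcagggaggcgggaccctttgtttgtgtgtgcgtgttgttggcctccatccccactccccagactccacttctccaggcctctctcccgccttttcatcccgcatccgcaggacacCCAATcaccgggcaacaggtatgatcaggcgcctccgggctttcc
FADS1, chr11:61816954-61817253, minus strand: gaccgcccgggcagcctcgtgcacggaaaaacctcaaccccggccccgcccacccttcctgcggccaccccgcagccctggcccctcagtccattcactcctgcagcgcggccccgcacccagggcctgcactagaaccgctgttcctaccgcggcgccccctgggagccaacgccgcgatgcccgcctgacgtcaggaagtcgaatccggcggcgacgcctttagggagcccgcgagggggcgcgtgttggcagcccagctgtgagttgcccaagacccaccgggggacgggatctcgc
ELOVL1, chr1:43367962-43368261, minus strand: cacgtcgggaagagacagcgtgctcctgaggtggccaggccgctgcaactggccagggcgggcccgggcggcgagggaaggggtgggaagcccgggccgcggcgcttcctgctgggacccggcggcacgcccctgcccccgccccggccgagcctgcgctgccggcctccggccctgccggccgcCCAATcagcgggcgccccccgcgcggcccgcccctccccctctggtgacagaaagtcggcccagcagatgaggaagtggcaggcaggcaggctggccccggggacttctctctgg
SCD5, chr4:82798747-82799046, minus strand: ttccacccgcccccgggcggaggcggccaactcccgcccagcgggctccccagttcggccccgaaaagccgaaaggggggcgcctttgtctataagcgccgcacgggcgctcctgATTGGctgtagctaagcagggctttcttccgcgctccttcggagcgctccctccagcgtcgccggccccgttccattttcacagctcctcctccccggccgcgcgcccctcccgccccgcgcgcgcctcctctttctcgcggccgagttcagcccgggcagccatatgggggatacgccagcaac
TECR, chr19:14529344-14529643, plus strand: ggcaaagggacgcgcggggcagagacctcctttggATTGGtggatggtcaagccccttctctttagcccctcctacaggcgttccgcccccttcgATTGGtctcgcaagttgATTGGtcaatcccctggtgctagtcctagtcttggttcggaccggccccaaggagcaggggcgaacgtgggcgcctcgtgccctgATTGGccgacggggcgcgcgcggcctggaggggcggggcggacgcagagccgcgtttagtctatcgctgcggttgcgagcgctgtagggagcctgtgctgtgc
Promoters were at hand for 9 of the 10 genes and not for HSD17B12, in 12 windows, since FADS2, HACD3 and TECR have 2 starts each. The motifs were searched on both strands. CCAAT was in 8 of the 12 windows, which belong to 7 genes, while 34.6% of 34796 RefSeq promoters of the same length held at least 1 copy. Each TECR window held 4 copies. The 2 TECR windows overlap over most of their length and share these 4 copies, so they are not separate cases in this count or the next ones. The 2 FADS2 windows overlap in part. The 4 windows without it were those of FADS1 and ELOVL7, the other FADS2 window (chr11:61815953-61816252) and the second HACD3 window. GGGCGG, the SP1 motif, was in 10 of 12, missing from ELOVL5 and from that other FADS2 window, against 44.9% of all promoters. CACGTG, the E-box, was in 1 of 12, that of ELOVL5, against 7.2%. The sterol regulatory element TCACNCCAC, which includes TCACCCCAC, was in 0 of 12, against 1.12% of all promoters, and a motif of interferon regulatory factors, GAAA and GAAA with 2 bases of any kind between them, was in 0 of 12, against 3.57%. A match is a description of these letters only, and the absence of one says only that these windows do not hold it. The 34796 promoters were not chosen to match these windows in base composition, and the part of base composition was not tested.

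FADS2 (ENSG00000134824, chr11:61792980-61867354, plus strand), the delta-6 desaturase that takes the first and rate-limiting step of polyunsaturated fatty acid synthesis, had the smallest p of the 9. The positions given with the identifiers are those of GENCODE 44 on GRCh38. Its normalized counts were 9201 and 9081 in the sh-NC libraries and 5646 and 5448 in the sh-IRF1 libraries. The replicates lay close together in each group and the groups did not overlap. The log2 fold change was -0.72 (standard error 0.0332, 95% interval -0.79 to -0.65, adjusted p = 3.81e-23, limma), which left 60.7% of the control level. Of all genes tested, 6.23% had a lower log2 fold change.

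FADS1 (ENSG00000149485, chr11:61799627-61829318, minus strand), the delta-5 desaturase that acts after FADS2, fell less. It had 4725 and 4799 normalized counts in sh-NC and 3825 and 3684 in sh-IRF1, again without overlap. Its log2 fold change was -0.34 (standard error 0.0390, 95% interval -0.42 to -0.26, adjusted p = 3.80e-10, limma), or 78.8% of the control level. The intervals of the FADS1 and FADS2 changes did not overlap. The number of FADS1 reads for each FADS2 read was 0.513 and 0.528 in sh-NC and 0.677 and 0.676 in sh-IRF1, so that the ratio was higher in both sh-IRF1 libraries (exact two-sided permutation p = 0.333, the smallest that 2 against 2 libraries allow).

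FADS3 (ENSG00000221968, chr11:61873519-61892051, minus strand), the third member of the cluster, which desaturates sphingoid bases, went the other way. Its normalized counts were 250 and 260 in sh-NC and 371 and 298 in sh-IRF1. The groups did not overlap, but the sh-IRF1 libraries stood apart from each other by 2.81 times the counting error. The log2 fold change was 0.38 (standard error 0.129, 95% interval 0.12 to 0.64, adjusted p = 0.0147, limma). Without sh-IRF1 replicate 1 it was 0.22 with an adjusted p of 0.31, so this call rests on that library. Its share of the reads of the 3 FADS genes was 1.77% and 1.84% in sh-NC and 3.77% and 3.16% in sh-IRF1. FADS2 made up 64.9% and 64.2% of these reads in sh-NC and 57.4% and 57.8% in sh-IRF1.

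SCD5 (ENSG00000145284, chr4:82629539-82798796, minus strand), a second stearoyl-CoA desaturase next to SCD, was close to the limit of detection. The sh-NC libraries held 27 and 22 of its reads, and sh-IRF1 replicates 1 and 2 held 5 and 8. SCD5 passed the filter through its sh-NC values alone, both sh-IRF1 values being under 10, so it could be tested only because it was high in sh-NC, and its values are a description. The log2 fold change was -1.87 (standard error 0.582, 95% interval -3.04 to -0.70, adjusted p = 0.00775, limma). The adjusted p was 0.0505 without sh-IRF1 replicate 1 and 0.091 without sh-NC replicate 1. The groups did not overlap. SCD, which has the same activity, had 17846 and 18182 normalized counts in sh-NC and 9714 and 9883 in sh-IRF1 (log2 fold change -0.88, adjusted p = 2.06e-29, limma). SCD5 reads were 0.155% and 0.124% of the reads of the pair in sh-NC, with exact 95% binomial intervals of 0.102% to 0.225% and 0.0778% to 0.188%. In sh-IRF1 they were 0.0512% and 0.0758%, with intervals of 0.0166% to 0.119% and 0.0327% to 0.149%. Each sh-NC interval overlapped both sh-IRF1 intervals, which cover counting error only. Nearly all stearoyl-CoA desaturase reads in these cells thus came from SCD in both groups.

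Among the elongases, ELOVL1 fell and ELOVL5 did not pass the test. ELOVL1 (ENSG00000066322, chr1:43363398-43368074, minus strand), which extends saturated and monounsaturated chains to the very long ones found in sphingolipids, had 1446 and 1367 normalized counts in sh-NC and 986 and 976 in sh-IRF1. The groups were well apart, and the sh-IRF1 libraries nearly equal. Its log2 fold change was -0.52 (standard error 0.0645, 95% interval -0.65 to -0.39, adjusted p = 3.92e-09, limma), or 69.7% of the control level.

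ELOVL5 (ENSG00000012660, chr6:53267398-53349179, minus strand), which extends the polyunsaturated product of FADS2, had 2253 and 2317 normalized counts in sh-NC and 2290 and 2185 in sh-IRF1. The libraries of the groups overlapped. The log2 fold change was -0.03 with a 95% interval of -0.13 to 0.068 (adjusted p = 0.655, limma), an interval that does not reach the change of FADS1 or FADS2, the desaturases on either side of this step. The sign of this small value turned with total-count scaling, to 0.014, and without sh-IRF1 replicate 2, to 0.0032.

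ELOVL7 (ENSG00000164181, chr5:60751791-60844274, minus strand), an elongase of saturated long-chain fatty acids, was barely detected. It had 0 and 2 reads in sh-NC and 2 and 0 reads in sh-IRF1, no more than the 3 reads that a count of 0 allows in a library, so a difference was not detectable at this depth. These counts did not enter the test.

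The enzymes of the later elongation steps moved little, in both directions. TECR (ENSG00000099797, chr19:14517085-14565980, plus strand), the enoyl-CoA reductase of the last step, had 5430 and 5619 normalized counts in sh-NC and 5943 and 5957 in sh-IRF1. It was higher in both sh-IRF1 libraries, by 0.11 on the log2 scale (standard error 0.0353, 95% interval 0.036 to 0.18, adjusted p = 0.0117, limma). HACD3 (ENSG00000074696, chr15:65530418-65578349, plus strand), a dehydratase of the third step, had 2397 and 2372 normalized counts in sh-NC and 2146 and 2195 in sh-IRF1. Its log2 fold change was -0.14 (standard error 0.0483, 95% interval -0.23 to -0.038, adjusted p = 0.0202, limma). Both calls were lost in some fits with a library left out, while the fold changes kept their sign. In these fits they ran from 0.083 to 0.13 for TECR and from -0.15 to -0.12 for HACD3. The adjusted p of TECR rose to 0.0793, 0.092 and 0.0968 without sh-IRF1 replicate 1, sh-IRF1 replicate 2 and sh-NC replicate 1. That of HACD3 rose to 0.14, 0.0602 and 0.0694 without the same libraries, and to 0.126 with total-count scaling. HSD17B12 (ENSG00000149084, chr11:43680680-43856617, plus strand), the ketoacyl-CoA reductase of the second step, had 611 and 687 normalized counts in sh-NC and 675 and 704 in sh-IRF1, with overlap between the groups. Its log2 fold change was 0.089 (95% interval -0.083 to 0.26, adjusted p = 0.43, limma). In GENCODE 44, other genes overlap 21.9% of the exonic bases of HSD17B12, so some of its reads could belong to them.

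**Figure D2:**
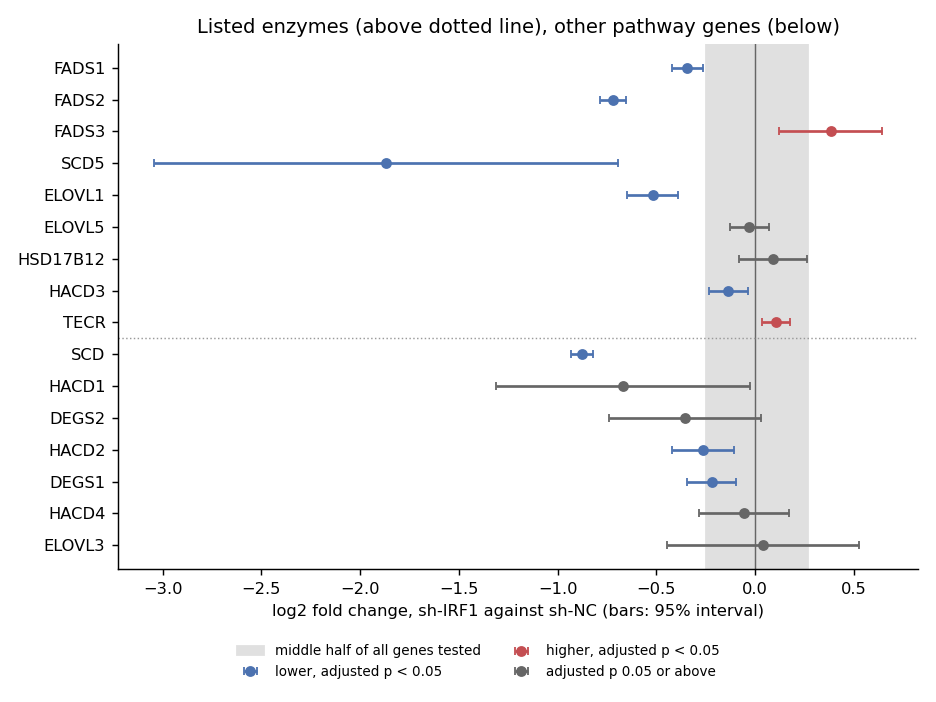
Change from sh-NC to sh-IRF1 on the log2 scale, with limma's 95% interval; the 9 tested enzymes stand above the dotted line and 7 other tested genes of desaturation and elongation below it, and the grey band holds the middle 50% of all genes tested. FADS2 at -0.72, ELOVL1 at -0.52 and SCD at -0.88 lie outside the band with narrow intervals, while ELOVL5, HSD17B12, HACD3 and TECR lie inside it.

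The elongase reads changed in make-up along with these differences. Per kilobase of annotated exon, ELOVL1 took 46.9% and 45.3% of the reads of the 6 listed ELOVL genes in sh-NC and 37.4% and 38.2% in sh-IRF1. ELOVL5 took 48.0% and 50.4% in sh-NC and 57.1% and 56.2% in sh-IRF1. The groups did not overlap for either gene (exact two-sided permutation p = 0.333 each, the smallest possible). Together these genes hold most of the reads, so the higher ELOVL5 share mirrors the lower ELOVL1 share and is no separate result. With the longest annotated transcript as the length, the ELOVL1 share went from 52.0% ± 1.23 to 43.5% ± 0.581 (SD, n = 2 each), so ELOVL1 led ELOVL5 in sh-NC on this scale and not on the other, while the difference between the groups was -8.48 percentage points, against -8.29. ELOVL3, an elongase of saturated and monounsaturated chains, held 4.02% to 5.38% over the libraries.

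**Figure D3:**
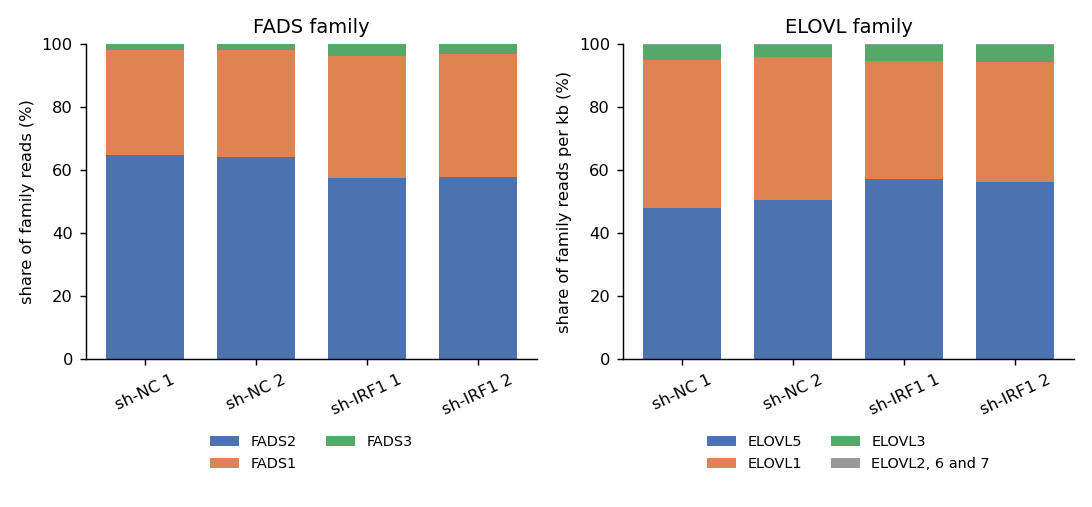
Left, share of the reads of FADS1, FADS2 and FADS3 that fell to each gene in each library; right, share of the reads per kilobase of exon of the ELOVL genes. In the sh-IRF1 libraries FADS2 takes 57.4% and 57.8% of its family, below both sh-NC libraries, and ELOVL1 takes 37.4% and 38.2%.

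Levels were ranked between genes per length, in RPKM, that is, reads scaled to the kilobases of exon and to the depth of the library. The ratios and shares of FADS, SCD and cytochrome b5 reads were not scaled to length. In sh-NC the order was TECR at 51.7 ± 1.18, FADS2 at 47.8 ± 0.52, ELOVL5 at 33.1 ± 0.61, ELOVL1 at 31.0 ± 1.28, FADS1 at 25.7 ± 0.243 and HACD3 at 18.6 ± 0.17 (SD, n = 2 each). HSD17B12 at 4.65, FADS3 at 2.24, SCD5 at 0.328 and ELOVL7 at 0.0127 followed. In sh-IRF1 TECR stood at 57.4 ± 0.296, ELOVL5 at 33.4 ± 0.989, FADS2 at 29.9 ± 0.648, ELOVL1 at 22.3 ± 0.0733 and FADS1 at 20.9 ± 0.48 (SD, n = 2 each), so that on this length FADS2 and ELOVL5 changed places. With the longest transcript they did not, since FADS2 stood at 99.5 and 62.3 in the groups and ELOVL5 at 40.9 and 41.4. ELOVL5 and ELOVL1 in sh-NC differed by less than 2 times the larger of their SDs. The place of FADS1 also depends on the length used, since its annotated exons cover 10228 bases and its longest transcript 4364. With the longest transcript it stood at 60.2 in sh-NC, above ELOVL1 at 47.8 and ELOVL5 at 40.9. Summed over the 10 genes, reads scaled to library depth (RPM) were 1456 and 1463 in sh-NC and 1243 and 1225 in sh-IRF1. Without FADS2 the sums were 947 and 962 in sh-NC and 923 and 914 in sh-IRF1.

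FADS1, FADS2 and FADS3 lie side by side on chromosome 11, and their positions bear on how the reads are read. In RefSeq on GRCh38.p14, FADS1 starts at 61817003 and is transcribed on the minus strand, and FADS2 starts at 61816203 or 61816404 on the plus strand. The promoters printed for FADS1 and FADS2 therefore lie close together on opposite strands. The FADS1 start lies 800 and 599 bases inside FADS2, and the genes overlap at their 5′ ends. In GENCODE 44, 5.57% of the exonic bases of FADS1 are shared with FADS2 or MIR1908, and 5.11% of those of FADS2 with FADS1 or FEN1. The sources used here do not say whether the counting used strand. Reads from the bases that FADS1 and FADS2 share could thus have gone to either gene. The labels name hg38 as the build, and no annotation is given.

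Around the cluster, changes did not go 1 way. Distances here run from the RefSeq start of FADS2 at 61816203, to RefSeq starts where given and otherwise, for DAGLA, MYRF, BEST1 and FTH1, to GENCODE 44 starts. The longest FADS2 gene model of GENCODE 44 begins far upstream, next to FEN1, and the models of FADS2 and FEN1 share exonic bases. Of 7 neighbouring genes, 1 fell, 1 rose and 5 did not pass the test, while 21.9% of all genes were lower and 20.3% higher. FEN1, a DNA repair nuclease whose start lies at -23.3 kb from the first RefSeq start of FADS2, had a log2 fold change of 0.11 (adjusted p = 0.051, limma), and TMEM258, at -23.6 kb, one of 0.092 (adjusted p = 0.593). FEN1 was at the threshold, since it passed by edgeR (adjusted p = 0.0381) and by limma with the replicate block (adjusted p = 0.0417), and not by DESeq2 (adjusted p = 0.106). DAGLA, a diacylglycerol lipase gene at -136 kb, fell by 0.59 on the log2 scale (adjusted p = 0.00745, and 0.0816 without sh-IRF1 replicate 2). FTH1, which encodes ferritin heavy chain, at 151 kb, rose by 0.93 (adjusted p = 1.16e-29), and BEST1 overlaps 63.2% of its exonic bases.

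**Figure D4:**
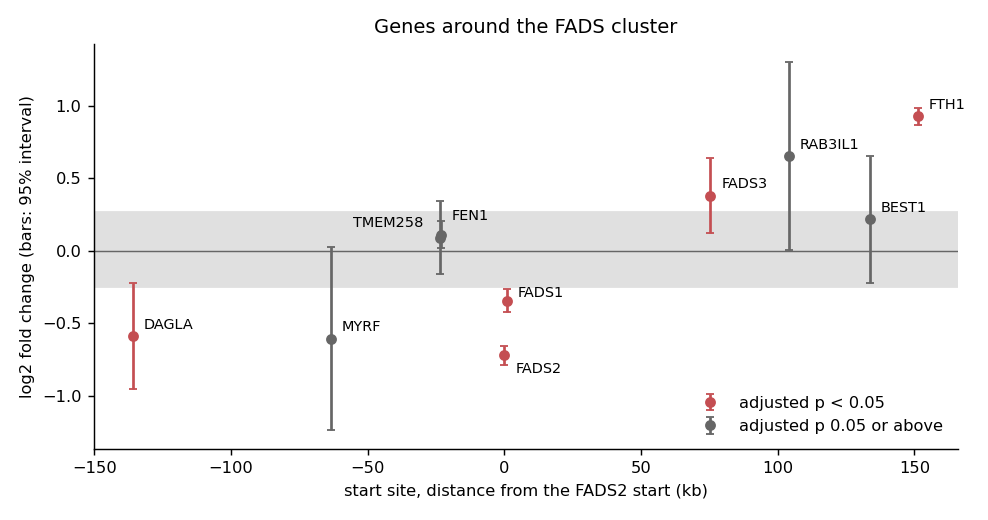
Log2 fold change with its 95% interval against the distance of each start site from the first RefSeq start of FADS2 in kb, on the RefSeq or GENCODE 44 starts named above; red points passed an adjusted p of 0.05 and the grey band holds the middle 50% of all genes tested. FADS1 and FADS2 lie below the band, FEN1 and TMEM258 at -23.3 and -23.6 kb lie inside it, and FADS3 at 75.3 kb lies above it.

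Other genes of desaturation and elongation were read from a list of 12, of which 9 were in the table and 7 could be tested. Of these, 3 were lower and 0 higher by the adjusted p, against 21.9% and 20.3% of all genes, and their median was -0.26. By edgeR, by DESeq2 and at an unadjusted limma p under 0.05, 0 were higher as well. After SCD, the lower ones were HACD2, a dehydratase of the third elongation step with 878 and 1037 normalized counts in sh-NC and 826 and 765 in sh-IRF1 (log2 fold change -0.26, adjusted p = 0.00528, limma), and DEGS1, the desaturase that completes ceramide, at -0.22 (adjusted p = 0.00296). HACD2 and DEGS1 were named after their values were seen, and both lost the call in some fits with a library left out. HACD2 stood at -0.14 without sh-NC replicate 2 and at -0.21 without sh-IRF1 replicate 2, and DEGS1 at -0.18 without sh-IRF1 replicate 2. Both kept a negative log2 fold change with any library left out, but SCD was the 1 gene of the list that kept its call. ELOVL6, which extends palmitate to stearate, had only 7 and 6 reads in sh-NC and 2 and 2 in sh-IRF1 and was not tested. ELOVL3 had a log2 fold change of 0.04 and an interval of -0.45 to 0.53.

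The cytochrome b5 system supplies desaturases with electrons. Of 6 genes 5 were tested, of which 4 were higher and 1 lower by limma's adjusted p, with a median of 0.36, while 20.3% of all genes were higher. Of the 4, CYB5R1 and CYB5R4 lost the call by DESeq2 (adjusted p = 0.0517 and 0.0642). Without sh-IRF1 replicate 1 or sh-NC replicate 2, both lost it as well (adjusted p = 0.0968 and 0.114 for CYB5R1, 0.187 and 0.112 for CYB5R4), and CYB5R1 also without sh-IRF1 replicate 2 (0.0782). CYB5R3, the main reductase of cytochrome b5, had 3831 and 3891 normalized counts in sh-NC and 5893 and 5977 in sh-IRF1, and rose to 154% of the control level (log2 fold change 0.62, standard error 0.0371, adjusted p = 5.26e-19, limma). CYB5B, the cytochrome b5 of the mitochondrial outer membrane, had 2204 and 2151 in sh-NC and 1835 and 1745 in sh-IRF1 (log2 fold change -0.28, adjusted p = 1.19e-05), and another transcript overlaps 24.1% of its exonic bases. CYB5A, the form at the endoplasmic reticulum, named after its values were seen, had 203 and 197 normalized counts in sh-NC and 308 and 287 in sh-IRF1 (log2 fold change 0.57, adjusted p = 6.11e-04). The CYB5A share of the reads of CYB5A and CYB5B went from 8.42% ± 0.0264 to 14.2% ± 0.191 (SD, n = 2 each).

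**Figure D5:**
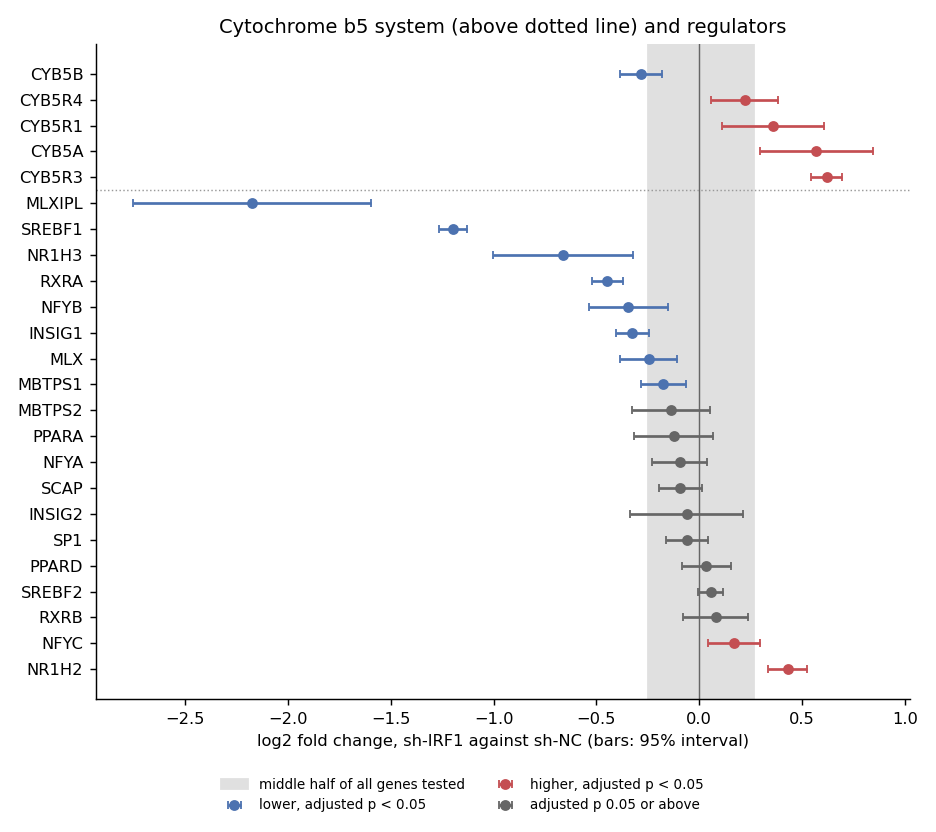
Log2 fold change with its 95% interval from limma for genes of the cytochrome b5 system, above the dotted line, and for transcriptional regulators of lipid genes, below it; the grey band holds the middle 50% of all genes tested. CYB5R3 at 0.62 and CYB5A at 0.57 stand above the band, while SREBF1 at -1.20 and MLXIPL at -2.18 stand far below it.

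Of 19 transcriptional regulators of lipid genes, all tested, 8 fell and 2 rose, with a median of -0.12, while 21.9% of all genes were lower and 20.3% higher. NFYC, among those that rose, lost the call by DESeq2 (adjusted p = 0.0706), and not all of the 8 kept it with a library left out. SREBF1 had the smallest p, with 11728 and 11361 normalized counts in sh-NC and 5141 and 4928 in sh-IRF1 (log2 fold change -1.20). SREBF2, its paralogue for cholesterol genes, had a log2 fold change of 0.055 (95% interval -0.0059 to 0.12, adjusted p = 0.143, limma). NR1H2, which encodes LXR beta, rose by 0.43 (adjusted p = 9.33e-11), and NR1H3, which encodes LXR alpha, fell by 0.66 (adjusted p = 0.00122). NAPSA overlaps 22.1% of the exonic bases of NR1H2. MLXIPL, which encodes the carbohydrate-responsive factor ChREBP, had 103 and 123 normalized counts in sh-NC and 23.9 and 24.4 in sh-IRF1 (log2 fold change -2.18, adjusted p = 1.62e-08). SREBF2, NR1H3, MLXIPL and NFYC were named after their values were seen.

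Genes that supply or use acyl-CoA were read from a list of 18, of which 15 were tested, with 6 lower and 1 higher and a median of -0.094. Among all genes tested, 21.9% were lower and 20.3% higher, and not all of the 6 kept the call with a library left out. FASN, fatty acid synthase, which makes the palmitate that elongases extend, had the smallest p, at -0.79 (adjusted p = 1.30e-29, limma). ACOT2, a mitochondrial thioesterase, was the 1 that rose, at 0.44 (adjusted p = 3.39e-04). ACSL3 and ACSL4, ligases that activate fatty acids and, in the case of ACSL4, favour arachidonic acid, fell by 0.76 and 0.47 (adjusted p = 3.73e-17 and 1.09e-13) and were named after their values were seen. Among 9 tested genes for enzymes that use polyunsaturated products, 4 were lower and 2 higher, with a median of 0.03, beside the same shares of all genes. LPCAT3, 1 of the 4 and named after its values were seen, lost the call by DESeq2 (adjusted p = 0.0725), and EMG1 overlaps 66.0% of its exonic bases. HSD17B4, the peroxisomal enzyme of the last steps to docosahexaenoic acid, had a log2 fold change of 0.43 (adjusted p = 1.31e-07).

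The genes whose pattern over the 4 libraries was most like that of FADS2 were AGPAT5, ARPC3 and VDAC1, among 4221 genes with a mean of at least 1000 normalized counts. Their root mean square differences from FADS2, on centred log2(normalized count + 1), were 0.0189, 0.0199 and 0.0199, and their log2 fold changes were -0.74, -0.72 and -0.76. With 4 libraries in 2 groups, this likeness describes little more than a like change between the groups.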

How the data were processed

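Total RNA of 4 MV4-11 libraries (2 per group) was prepared with a TruSeq kit and sequenced by a service company. The submitters' processing notes name HISAT2 2.0.5 and hg38. The counting tool, annotation and use of strand are not given in the sources used here. The study names FPKM for quantification and DESeq2 for the test. The authors deposited a normalized signal, in which every library's reads are divided by a size factor. In all 4 libraries 100% of the values were whole multiples of 1 step, within 0.001 of a read, so whole reads were recovered. There were 0 other columns of sample values.

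Groups came from the sample titles. Symbols matched 23456 of 23622 identifiers. Positions, lengths and shared exonic bases came from GENCODE 44 on GRCh38, and promoters from RefSeq on GRCh38.p14. The test was limma 3.58.1 (R 4.3.3, trend and robust shrinkage, 43.0 prior degrees of freedom) on log2(value + 1) for the 14120 genes that reached 10 in 2 or more libraries, which left out 9502. It was checked on simulated data. Alternatives were edgeR 4.0.16 and DESeq2 1.42.0 on recovered reads, other scalings, pseudocounts and filters, no robust shrinkage, a replicate block and leaving out each library. Replicates differed by more than counting error, with a chi-square per gene of 2.90 for the control pair and 2.45 for the knockdown pair.

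The genes and lists were chosen with earlier results of these data known, so no list was tested as a whole. Named by rule were the 10 genes, IRF1, SCD, SREBF1, ELOVL6, the gene of smallest p in each direction of each list, and the 3 genes most like FADS2. A gene that this rule names is not reported here.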

Additional observations from a re-analysis of the deposited data

How the results depend on the processing

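FADS1, FADS2 and ELOVL1 kept their direction and an adjusted p under 0.05 under all 14 alternative fits. The counts of 5 lower and 2 higher enzymes were also given by edgeR, by DESeq2 and with the replicate number as a block. The replicate block gave 3147 genes lower and 2903 higher, against 3092 and 2861 without it. Same-numbered libraries of the groups did not deviate together (correlation 0.011 over 9987 genes), so the numbers were not taken as pairs. With a log2 fold change beyond 0.5 required as well, 1067 genes were lower and 1168 higher, and 3 and 0 of the enzymes. With each library left out in turn, 3 to 5 enzymes were lower and 0 to 2 higher, and the ELOVL5 value ran from -0.064 to 0.0032. Total-count scaling moved the median of the enzymes to -0.091 and ELOVL5 to 0.014, while the median of all genes moved to 0.042. Such scaling shifts the fold changes of all genes by nearly the same amount. Why library totals and size factors differ was not tested. Over the single enzymes, 114 of the alternative values kept direction and side of the threshold, 10 lost the call and 2 turned sign. At 5 to 27 reads, SCD5 is limited by depth, and ELOVL6 and ELOVL7 were too low to test.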
